A study of Mus musculus with 10 samples.

Results

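The annexins analysed here are 10 of the 21010 genes in the deposited count table, namely Anxa1, Anxa2, Anxa3, Anxa4, Anxa5, Anxa6, Anxa7, Anxa8, Anxa11 and Anxa13. They were taken by gene symbol as the family of Anxa8, and the family was chosen by the measured counts of Anxa8, which stood out in the comparison of KMS with KM mice. The values of Anxa8 in that comparison are therefore given as a description without a test, and the other 9 members were read from a fit over all genes. All 10 passed the filter on low counts that kept 15728 genes, and Anxa8 passed it through its KM libraries.

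RNA was sequenced from kidneys of 5 KMS mice (Ksp1.3/cre; MYCfl/fl;Setd2fl/fl) and 5 KM mice (Ksp1.3/cre; MYCfl/fl) of the C57BL/6 background at 20 weeks of age, with 1 library per mouse. In both groups a Cre recombinase under the promoter of Ksp-cadherin, which is active in tubule epithelium, switches on MYC and gives polycystic kidneys, and KMS mice lose Setd2 in the same cells and form renal tumors. The sample labels describe tubular epithelial cells of the renal cortex, the methods kidney tissue, and the Reporting Summary neoplastic masses of KMS mice and cysts of KM mice, so the genotype and the tissue taken cannot be told apart. Female and male mice were used without a label of which was which.

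Annexins are cytosolic proteins that bind phospholipids of negative charge when calcium rises, through a core of repeated helical domains. Their N-terminal tails differ and decide the partners, among them the small calcium-binding S100 proteins. The family takes part in membrane repair, vesicle traffic and the end of inflammation, and in the kidney several members lie at the membranes of tubule cells, whereas Anxa8 is best known from stratified epithelia.

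The total count was between 16925118 and 25029639 in the KMS libraries and between 10873993 and 14564152 in the KM libraries, so a gene at a given level was counted with less precision in KM. KMS replicate 5 stood apart, with a mean Spearman correlation of 0.851 with the other KMS libraries, against 0.913 to 0.923 for the other 4. Setd2, counted over the whole gene, lay between 28.2 and 89.0 CPM (the count scaled to library size) in KMS and between 62.6 and 73.3 CPM in KM. The Setd2 groups overlapped, and such a count does not tell transcripts with and without the floxed exon apart. Cdh16, the gene of Ksp-cadherin, lay between 837 and 1425 CPM in KMS and between 421 and 1163 CPM in KM. Xist, which is expressed from the inactive X chromosome of females, was at 208, 143, 1118, 0.440 and 3.36 CPM in KMS replicates 1 to 5 and at 0.223, 0, 0.355, 2303 and 1.31 CPM in KM replicates 1 to 5. It was thus high in 3 KMS libraries and 1 KM library, and the mean log2 CPM of Y-linked genes was lowest in the same 4 libraries, so the sexes were spread unevenly over the groups. Defining genes of other cell types were present beside those of tubules, with summed levels of 6 endothelial genes from 178 to 1007 CPM in KMS and from 285 to 953 CPM in KM. In such bulk RNA, fewer cells of a type and less RNA per cell cannot be told apart.

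Anxa8, Anxa7 and Anxa11 lie on chromosome 14 of GRCm38.p6 and the other members on 7 other chromosomes. Anxa8 spans 34085979 to 34100571 on the plus strand, and in RefSeq it lies inside the longer locus A630023A22Rik, from 34051126 to 34102754, for which no count was used here. Anxa7 spans 20455261 to 20480133 on the minus strand, and Anxa2 spans 69453683 to 69491792 on the plus strand of chromosome 9. The RefSeq promoter table held 7 of the 10 members, without Anxa3, Anxa6 and Anxa13. Shown are the 250 bases before the annotated gene start of the pair of members whose groups did not overlap, Anxa8 and Anxa7, and of Anxa2, the member with the widest spread. Capitals mark matches, on either strand, to the letters of a TATA box (TATAAA), a GC box (GGGCGG), an AP-1 site (TGANTCA) or an E-box (CACGTG).
Anxa8, chr14:34085729-34085978, plus strand: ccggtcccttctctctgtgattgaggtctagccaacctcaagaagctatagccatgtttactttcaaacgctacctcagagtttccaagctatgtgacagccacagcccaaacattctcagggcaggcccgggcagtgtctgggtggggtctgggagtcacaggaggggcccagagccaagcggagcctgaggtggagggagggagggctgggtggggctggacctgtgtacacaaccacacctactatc
Anxa7, chr14:20480134-20480383, minus strand: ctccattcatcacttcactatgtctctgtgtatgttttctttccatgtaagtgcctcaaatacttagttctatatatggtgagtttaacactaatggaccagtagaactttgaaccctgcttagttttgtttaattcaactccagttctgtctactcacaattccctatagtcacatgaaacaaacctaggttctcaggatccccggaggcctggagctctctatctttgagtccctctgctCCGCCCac
Anxa2, chr9:69453433-69453682, plus strand: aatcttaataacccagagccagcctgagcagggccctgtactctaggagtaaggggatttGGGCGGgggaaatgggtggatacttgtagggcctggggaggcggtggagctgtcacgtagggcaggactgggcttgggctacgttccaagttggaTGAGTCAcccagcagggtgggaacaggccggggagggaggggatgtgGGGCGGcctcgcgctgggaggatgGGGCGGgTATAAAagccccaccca
The window of Anxa2 held 1 TATA box, 3 GC boxes and 1 AP-1 site, and that of Anxa7 held 1 GC box. The table has a second, overlapping window for Anxa7, chr14:20479942-20480191, not printed here, which held 4 GC boxes and 1 E-box. No letters of these motifs were found in the window of Anxa8. Of 32851 mouse windows of this length, 12.4% held the TATA box, 32.7% the GC box, 6.75% the AP-1 letters and 6.02% the E-box. These matches are a description of the letters and nothing was tested on them.

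Anxa8 was the lowest of the 10 members per length in both groups and was far lower in KMS. Its raw counts were 7, 17, 8, 6 and 3 in KMS replicates 1 to 5, against 58, 101, 173, 55 and 307 in KM replicates 1 to 5. Scaled to library size, Anxa8 was at 0.327, 0.981, 0.473, 0.330 and 0.187 CPM in KMS, against 4.32, 7.64, 10.2, 3.78 and 22.3 CPM in KM. Every KMS library lay below every KM library. KM replicate 5 was the highest of all and KMS replicate 5 the lowest.

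The mean of Anxa8 was 0.460 ± 0.309 CPM in KMS and 9.65 ± 7.53 CPM in KM (SD, n = 5 mice each), a log2 fold change of -4.37 (standard error 0.64). As a share of the reads of the 10 annexins, Anxa8 took between 0.0238% and 0.0987% in KMS and between 0.519% and 2.42% in KM. The share separated the groups in the same way as the CPM, and it does not use the scaling between libraries. Anxa8 was past the thresholds of an FDR under 0.05 and a 1.5-fold change, as were 16 of the 15728 tested genes (0.102%), 12 of them lower (0.0763%) and 4 higher in KMS (0.0254%); since it was chosen for this contrast, nothing is read from that. The 22 other settings refit the same counts by which Anxa8 was chosen, so they are a description too. Its log2 fold change was negative in all 22, between -4.83 and -3.81. It missed the thresholds in 8 of them, namely with the replicate number as a block, with the level of Y-linked genes, which differed between the groups, as a covariate, after thinning to equal totals, and without KMS replicate 1, 3 or 4 or KM replicate 2 or 3.

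**Figure D1:**
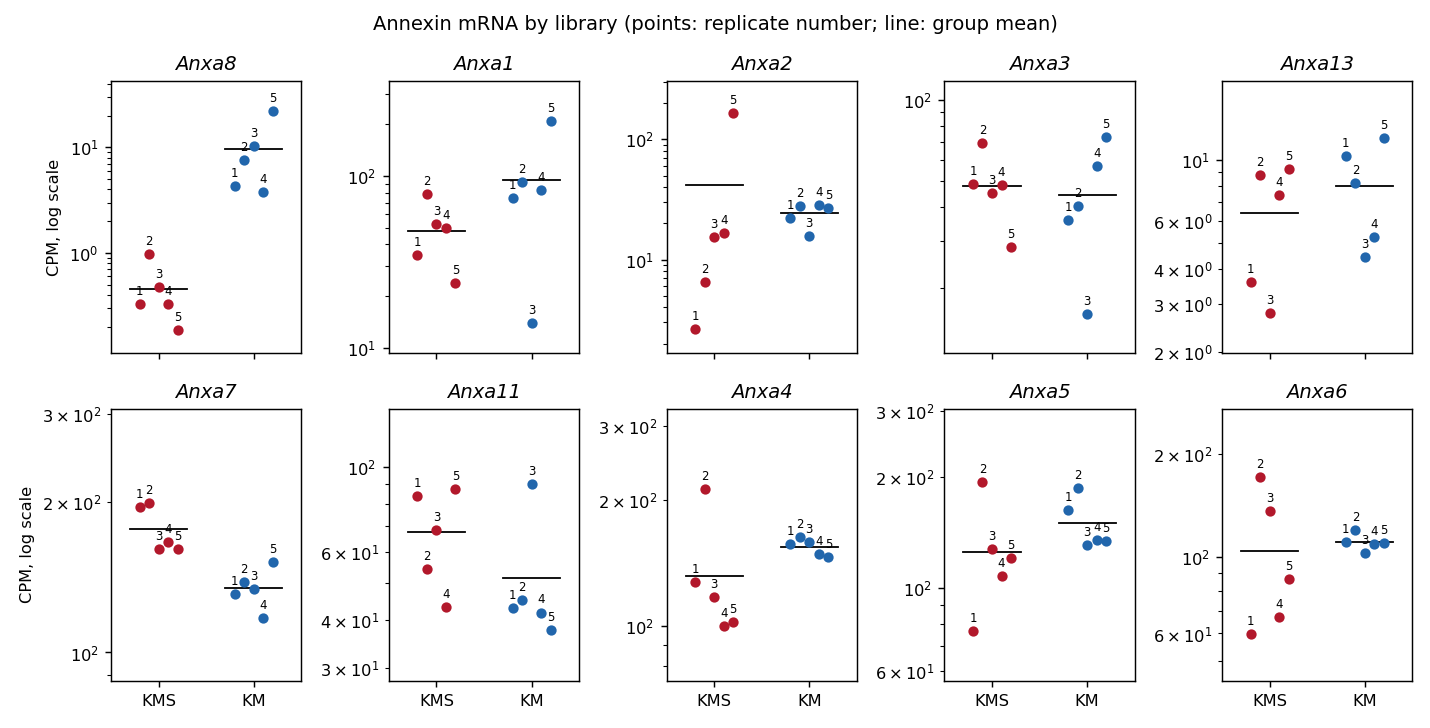
CPM of each of the 10 annexins (vertical axes, log scale, own range per panel) in 5 KMS and 5 KM libraries; points are libraries with their replicate number and lines are group means. Anxa8 lay between 0.187 and 0.981 CPM in KMS and between 3.78 and 22.3 CPM in KM, and KMS replicate 5 was at 166 CPM for Anxa2 while the other 4 KMS libraries were at most at 16.6 CPM.

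Several lists of cell markers moved in the same direction as Anxa8, and their part in its level was not tested. The lists here and below were chosen with earlier results of these data known, so their counts and calls are a description. Of 12 genes of stratified and basal epithelium in the table, 6 were tested, 5 with lower and 1 with higher values in KMS. Of these, 4 were lower at an unadjusted p under 0.05 (edgeR's quasi-likelihood test), as were 8.62% of all tested genes. In the same test 1, Krt5, was past the thresholds, as were 0.0763% of all tested genes on the lower side. DESeq2 gave a p for 11 genes of the list and placed 5 past the thresholds, against 5.24% of all its genes. Some of these, such as Krt14 and Col17a1, had not passed edgeR's filter on low counts. The summed level of the 12 genes was 63.1 to 138 CPM in KMS and 101 to 234 CPM in KM, and Perp, a desmosome gene of many epithelia, held most of it in every KMS library. Krt5, the keratin that marks basal cells, was at 0.374, 0, 0, 0 and 0.0623 CPM in KMS, against 9.01, 34.3, 18.1, 5.36 and 34.0 CPM in KM. Krt5 was thus at or near 0 in every KMS library and fell by 7.61 on the log2 scale (edgeR's quasi-likelihood test, adjusted p = 0.012), a fitted value that depends on the prior count. It remained past the thresholds in all 10 fits that left out 1 library, but not with the replicate block or the Y-linked covariate. Krt6a was at 0 in all KMS libraries, but also at 0 in KM replicates 3 and 4 and at 0.0745 and 0.151 CPM in KM replicates 1 and 2, and it was not tested. KM replicates 2 and 5 were the highest for Krt5 and replicate 4 the lowest, while for Anxa8 replicates 5 and 3 were the highest.

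The uroplakins and other genes of urothelium, the lining of the renal pelvis, were all 7 tested, 6 with lower and 1 with higher values in KMS. None was past the thresholds in edgeR's quasi-likelihood test, 5 were lower at an unadjusted p under 0.05 (8.62% of all tested genes), and DESeq2 placed 2 past the thresholds (5.24% of its genes). Upk1a averaged 4.32 ± 3.16 CPM in KMS and 12.97 ± 8.60 CPM in KM, and Psca averaged 8.04 ± 12.3 CPM in KMS and 8.95 ± 7.14 CPM in KM (SD, n = 5 mice each). Upk1b, Upk2, Upk3a and Upk3b had log2 fold changes of -4.12, -3.71, -3.17 and -2.26. Those of Upk1a and Psca were -1.59 and -0.15, and Krt20 alone was positive, at 1.78. The sum of all 7 genes was 2.24 to 55.0 CPM in KMS and 10.5 to 141 CPM in KM. The groups thus overlapped, where those of Anxa8 did not. Krt20 gave 31.6 CPM of this sum in KMS replicate 1, and Psca 28.7 CPM in KMS replicate 5. All 6 genes of dividing cells had lower values in KMS, none past the thresholds in edgeR's quasi-likelihood test, 6 at an unadjusted p under 0.05 (8.62% of all tested genes), and 5 past the thresholds in DESeq2 (5.24% of its genes). Mki67 averaged 8.06 ± 7.16 CPM in KMS and 36.2 ± 15.4 CPM in KM, and Top2a averaged 6.47 ± 3.91 CPM in KMS and 22.6 ± 9.81 CPM in KM. Their sum was 11.8 to 48.8 CPM in KMS and 45.9 to 131 CPM in KM, with only KMS replicate 2 above the lowest KM library. Over the 10 libraries the log2 sum of these genes had a Pearson's r of 0.91 with Anxa8, and 0.62 after subtracting group means. For stratified epithelium the same values were 0.73 and 0.55, and for urothelium they were 0.53 and 0.14. The stratified sum was mostly Perp in every KMS library, so within KMS its likeness to Anxa8 does not stand for basal genes such as Krt5. The libraries share the split by genotype, so the first value of each pair contains it. The sums of fibroblast, intercalated cell and T cell genes also separated the groups. Those of fibroblasts were at 68.8 to 159 CPM in KMS against 178 to 500 CPM in KM. Those of intercalated cells were at 128 to 358 against 405 to 957 CPM. Those of T cells were at 1.08 to 6.38 against 15.5 to 33.7 CPM. Their 6, 5 and 4 tested genes were all lower in KMS. In edgeR's quasi-likelihood test 5, 5 and 4 had an unadjusted p under 0.05 (8.62% of all tested genes). There 1, 0 and 0 were past the thresholds (0.0763% on the lower side), and in DESeq2 5, 2 and 3 were (5.24% of its genes). Each list also held genes whose groups overlapped. After subtracting group means the log2 sums of these lists had an r of 0.11, 0.30 and -0.06 with Anxa8. Of the fibroblast genes Lum, a proteoglycan of collagen matrix, averaged 0.226 ± 0.113 CPM in KMS and 2.51 ± 0.828 CPM in KM and was past the thresholds (edgeR's quasi-likelihood test, adjusted p = 0.0233), but in only 3 of 10 fits without 1 library. It lost the call without KM replicate 1, 2, 3 or 4 and without KMS replicate 1, 3 or 4. Nor was Lum past the thresholds with the replicate block or the Y-linked covariate.

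Among 8 genes of injured tubules 7 had lower and 1 higher values in KMS, with a median log2 fold change of -2.0, and their log2 sum had an r of 0.55 with Anxa8, or 0.61 after subtracting group means. None was past the thresholds in edgeR's quasi-likelihood test, and 4 were lower at an unadjusted p under 0.05, as were 8.62% of all tested genes. DESeq2 gave a p for 6 of the 8 genes and placed 1, Vcam1, past the thresholds, against 5.24% of all its genes. The sum of the 8 genes overlapped, at 1642 to 8069 CPM in KMS and 2786 to 12782 CPM in KM. Most of it was Spp1, which averaged 3588 ± 2329.6 CPM in KMS and 5308 ± 3459.9 CPM in KM. Krt8, the only gene of this list with a higher value in KMS, averaged 251 ± 167 CPM in KMS and 172 ± 43.6 CPM in KM. Havcr1, Vcam1, Krt19 and Lcn2 had log2 fold changes of -4.53, -2.45, -2.13 and -2.12. Those of Sox9, Spp1 and Krt7 were -1.88, -0.57 and -0.17. Of the 8 genes only Havcr1 did not overlap between the groups, with KMS lower, as for 2.94% of all tested genes. The 5 macrophage and 4 B cell genes tested all had lower values in KMS, with overlapping sums of 91.4 to 319 CPM in KMS and 210 to 689 CPM in KM for macrophages and of 2.95 to 6.16 CPM in KMS and 5.50 to 49.6 CPM in KM for B cells. After subtracting group means their log2 sums had an r of 0.11 and 0.09 with Anxa8. The other lists did not fall as a set, and their sums overlapped between the groups. Of the tested genes, 5 of proximal tubule were higher and 3 lower in KMS, and 4 and 0 of the distal convoluted tubule. These counts were 2 and 2 for thick ascending limb, 2 and 3 for principal cells and 1 and 2 for mesothelium. For endothelium they were 2 and 4, and for neutrophils 2 and 2. None was past the thresholds in edgeR's quasi-likelihood test (0.102% of all tested genes).

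**Figure D2:**
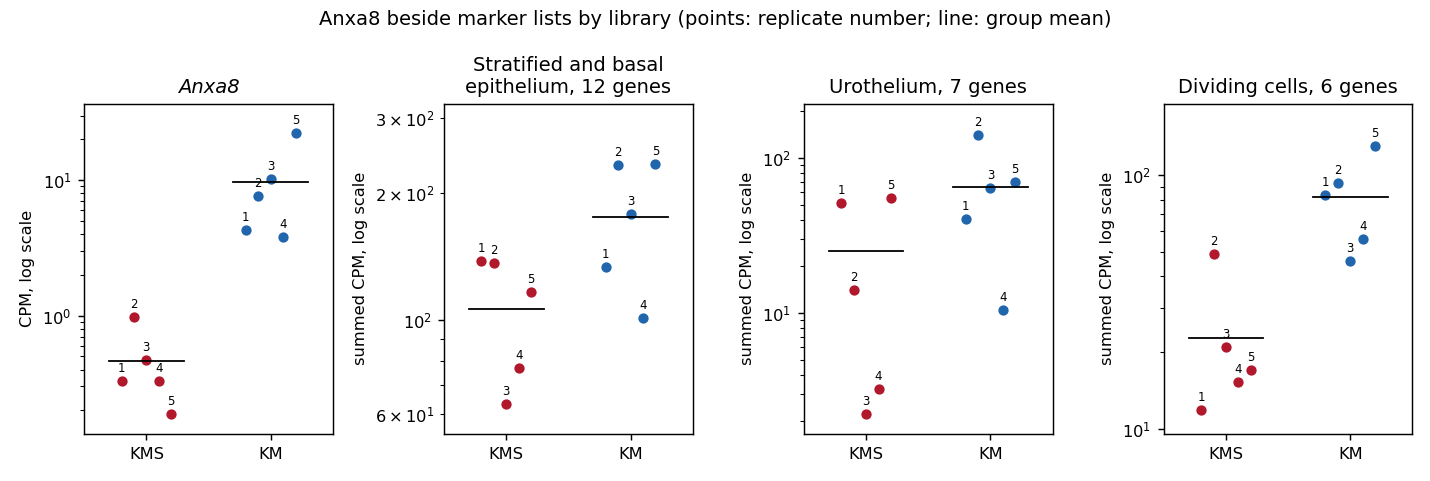
Anxa8 (CPM) and the summed CPM of 12 genes of stratified and basal epithelium, 7 of urothelium and 6 of dividing cells (vertical axes, log scale) in 5 KMS and 5 KM libraries; points are libraries with their replicate number and lines are group means. The groups do not overlap for Anxa8, whereas the marker sums overlap, as for urothelium at 2.24 to 55.0 CPM in KMS and 10.5 to 141 CPM in KM. Of single tested genes in these lists, Krt5, Krt15 and Bub1 did not overlap either, with KMS lower, as for 2.94% of all tested genes.

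Anxa7 and Anxa11 have long tails rich in glycine and proline and both bind Pdcd6, a calcium-binding protein also called ALG-2. Anxa7, first described as synexin for its action in membrane fusion, was at 196, 199.7, 161, 166 and 161 CPM in KMS and at 131, 138, 134, 117 and 152 CPM in KM. Every KMS library lay above every KM library, in the opposite direction to Anxa8, and only Anxa8 and Anxa7 of the 10 members did not overlap between groups. Groups did not overlap for 4.79% of all tested genes, with KMS lower for 2.94% and KMS higher for 1.84%. Anxa7 averaged 177 ± 19.4 CPM in KMS and 134 ± 12.5 CPM in KM (SD, n = 5 mice each), a log2 fold change of 0.40 (standard error 0.17). This did not pass the test (adjusted p = 0.244 over all genes, edgeR's quasi-likelihood test with Benjamini-Hochberg adjustment; unadjusted p = 0.0433), and 10.8% of all tested genes were higher at an unadjusted p under 0.05. The value stayed between 0.35 and 0.45 whichever library was left out, but it was 0.25 with upper-quartile factors and 0.11 with library totals alone, which lowered the median of all genes to -0.09 and -0.24, against 0.06.

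Anxa11, which tethers RNA granules to lysosomes and also binds S100a6, was at 83.9, 54.2, 68.5, 43.3 and 87.3 CPM in KMS and at 42.9, 45.1, 90.05, 41.8 and 37.7 CPM in KM. KM replicate 3 was the highest of all 10 libraries, and the other 4 KM libraries lay near the lowest KMS library. The log2 fold change of 0.39 (standard error 0.29) did not pass the test (edgeR's quasi-likelihood test, adjusted p = 0.478). Counts of Anxa11 are uncertain, since the pseudogene Gm2260 matches 657 bases of it at 100% and Gm2274 matches 609 bases at 99.7%, and reads may be split between them. The antisense gene Anxa11os also overlaps it in GENCODE, and whether reads were counted by strand is not stated. The counts of Gm2260 were 22, 27, 91, 59 and 97 in KMS and 15, 14, 128, 35 and 41 in KM, where KM replicate 3 was again the highest.

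Anxa1 is the annexin that glucocorticoids induce and that acts on formyl peptide receptors of leukocytes to end inflammation. It was at 34.5, 78.3, 52.9, 49.5 and 23.7 CPM in KMS and at 74.4, 92.0, 13.9, 82.9 and 208 CPM in KM. KM libraries held both the lowest and the highest value, replicates 3 and 5, so the groups overlapped. The log2 fold change of -0.98 (standard error 0.54) did not pass the test (edgeR's quasi-likelihood test, adjusted p = 0.338), and it lay between -1.25 and -0.45 when single libraries were left out.

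Anxa3, known from neutrophil granules in human cells, was at 48.9, 69.1, 45.0, 48.3 and 28.3 CPM in KMS and at 35.7, 40.2, 16.04, 56.9 and 72.8 CPM in KM. As for Anxa1, KM replicate 3 was the lowest and KM replicate 5 the highest. Its log2 fold change was 0.11 (standard error 0.36; edgeR's quasi-likelihood test, adjusted p = 0.896), and the sign changed in 5 of 22 other settings.

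Anxa2 forms a tetramer with S100a10 that links membranes to actin and binds plasminogen at the cell surface. It was at 2.67, 6.46, 15.4, 16.6 and 166 CPM in KMS and at 22.3, 27.9, 15.8, 28.6 and 26.8 CPM in KM. KMS replicate 5 was far above the next KMS library, and KMS replicates 1, 2 and 3 lay below every KM library, replicate 3 only narrowly. With this library the log2 fold change was 0.77 (standard error 0.88; edgeR's quasi-likelihood test, adjusted p = 0.662), and without KMS replicate 5 it was -1.20, so 1 library decided the sign. S100a10 was at 92.9, 164, 60.6, 77.4 and 279 CPM in KMS and at 94.7, 95.4, 58.7, 67.5 and 77.7 CPM in KM, with KMS replicate 5 again the highest. The log2 fold change of S100a10 was also 0.77 (standard error 0.39; edgeR's quasi-likelihood test, adjusted p = 0.290), and 0.34 without KMS replicate 5. After subtracting group means, Anxa2 and S100a10 had a Pearson's r of 0.56 over 10 libraries and of -0.32 without KMS replicate 5.

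Anxa4, Anxa5 and Anxa6 were abundant in every library. Anxa4, found at the membranes of secretory and kidney epithelia, was at 127, 212, 117, 99.6 and 102 CPM in KMS and at 157, 163, 159, 148 and 146 CPM in KM. KMS replicate 2 lay above every KM library and the other 4 KMS libraries below every one. Anxa5, whose binding to exposed phosphatidylserine makes it the usual stain for dying cells, was at 76.8, 194, 127, 108 and 120 CPM in KMS and at 162, 186, 131, 135 and 134 CPM in KM. Anxa6, built of a doubled annexin core and bound to late endosomes and the plasma membrane, was at 59.8, 171, 137, 67.1 and 86.5 CPM in KMS and at 111, 120, 103, 109 and 109.9 CPM in KM. For all 3 genes KMS replicate 2 was the highest KMS library, and the spread was wider in KMS. The coefficient of variation of Anxa4 was 35.1% in KMS and 4.67% in KM, and that of Anxa6 was 46.0% in KMS and 5.56% in KM. Their log2 fold changes were -0.23 for Anxa4, -0.26 for Anxa5 and -0.08 for Anxa6 (standard errors 0.23, 0.25 and 0.29), with adjusted p of 0.615, 0.600 and 0.902 from edgeR's quasi-likelihood test. The sign of Anxa6 changed without KMS replicate 1 (0.067) and without KMS replicate 4 (0.045).

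Anxa13, a lipid-anchored annexin of intestinal and renal epithelium, was at 3.60, 8.83, 2.78, 7.48 and 9.28 CPM in KMS and at 10.3, 8.24, 4.44, 5.23 and 11.97 CPM in KM. KMS replicates 1 and 3 lay below every KM library and the others within the range of KM. Its log2 fold change of -0.33 (standard error 0.42) did not pass the test (edgeR's quasi-likelihood test, adjusted p = 0.700).

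**Figure D3:**
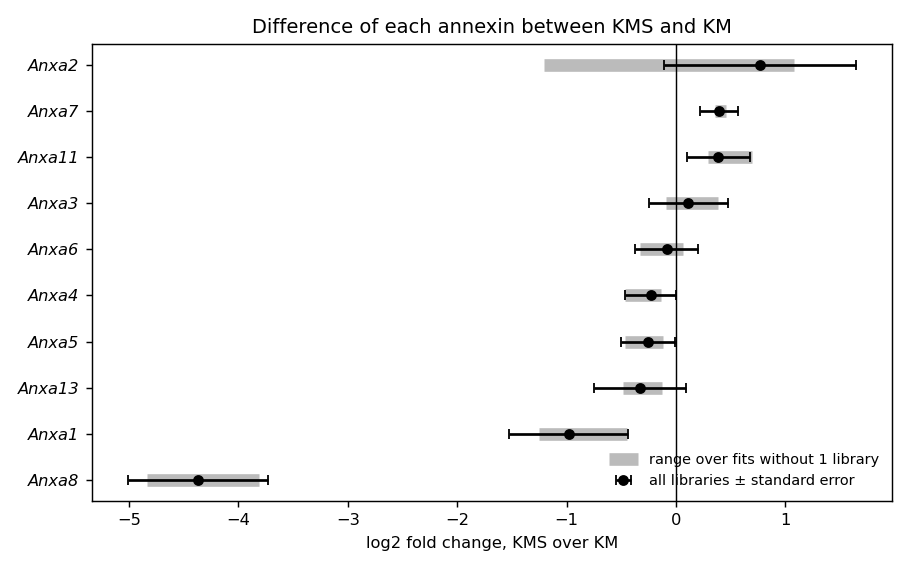
Log2 fold change of KMS over KM for each annexin (horizontal axis; positive values are higher in KMS); points and bars are the estimate from all 10 libraries with its standard error, and grey bands are the range over 10 fits that each leave out 1 library. Anxa8 lies at -4.37 with a band from -4.83 to -3.81, and the band of Anxa2 crosses 0, from -1.20 to 1.08.

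Across the family, 4 members had a positive and 6 a negative log2 fold change, with a median of -0.16, against a median of 0.06 and 46% negative over all tested genes. The 9 members other than Anxa8 lay between -0.98 and 0.77, and none of them passed the thresholds. Of these 9, Anxa7 alone had an unadjusted p under 0.05, as had 19.5% of all tested genes (edgeR's quasi-likelihood test), and none of them passed the thresholds in limma-voom, the likelihood ratio test or DESeq2, which gave no adjusted p for Anxa2. These tools placed 0.21%, 3.83% and 5.24% of their genes past the thresholds. The 10 annexins together took 607 to 994 CPM in KMS and 677 to 921 CPM in KM, so their sum overlapped between the groups.

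Levels of different annexins were compared as CPM per kilobase of exon. On this scale Anxa5 was the highest member in both groups, at 70.5 ± 24.1 in KMS and 84.2 ± 13.5 in KM (SD, n = 5 mice each). Anxa6 was next, at 35.6 in KMS and 37.7 in KM, but by the length of the longest transcript it ranked 4 in KMS and 5 in KM. In KMS the means then ran from Anxa7 at 29.5 through Anxa4 at 28.3, Anxa1 at 16.4, Anxa11 at 16.3, Anxa3 at 13.2, Anxa2 at 11.1 and Anxa13 at 4.74 to Anxa8 at 0.244. In KM they ran from Anxa4 at 33.3 through Anxa1 at 32.4, Anxa7 at 22.4, Anxa11 at 12.5, Anxa3 at 12.2, Anxa2 at 6.51 and Anxa13 at 5.96 to Anxa8 at 5.13. Few neighbours in these orders were separated by their libraries. In KMS only Anxa13, at 2.06 or more, and Anxa8, at 0.522 or less, did not overlap. In KM Anxa5 and Anxa6 did not overlap, and Anxa6 and Anxa4 were apart only by 35.2 against 35.1, whereas Anxa13 and Anxa8 overlapped. Anxa8 was thus set apart at the bottom of the family in KMS, while in KM its highest library, at 11.8, exceeded the level of Anxa13 in every library. The order depends on the length used for each gene, here the union of its exons in GENCODE.

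**Figure D4:**
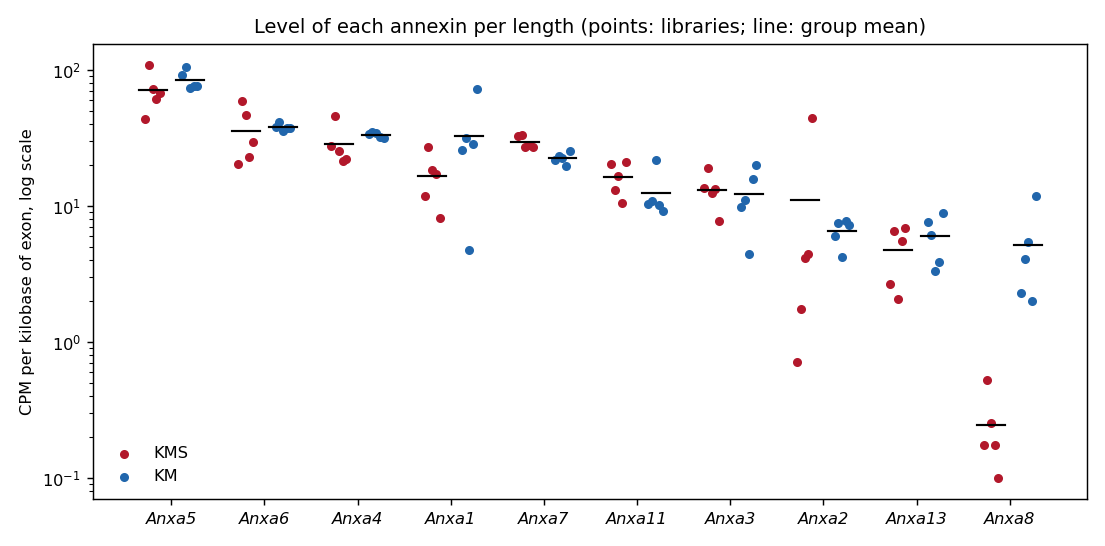
Level of each annexin in CPM per kilobase of exon (vertical axis, log scale), ordered by the mean in KM; points are 5 KMS and 5 KM libraries and lines are group means. Anxa5 is the highest, at 70.5 in KMS and 84.2 in KM, and Anxa8 the lowest, at 0.244 in KMS and 5.13 in KM.

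Variation among mice of the same group was described by Pearson's r of log2 CPM after subtracting group means, over 10 libraries that share library size and tissue makeup. Among the 45 pairs of annexins, Anxa1 and Anxa3 were the most alike, with r = 0.94. The value was 0.90 within KMS and 0.96 within KM, 0.86 without KM replicate 3, and 0.80 without the 2 libraries in which Anxa1 deviated most. Anxa11 ran opposite to both, with r = -0.86 with Anxa1 and -0.81 with Anxa3, and without KM replicate 3 these were -0.64 and -0.55. Anxa5 and Anxa6 had r = 0.86, and 0.51 without the 2 libraries in which Anxa5 deviated most. Anxa4 had r = 0.63 with Anxa5 and 0.67 with Anxa6, which became -0.26 and -0.22 without its 2 most deviating libraries. Anxa7 and Anxa8 had r = -0.62 over all libraries, which contains the group difference, and r = 0.74 after subtracting group means, which became 0.44 without the 2 libraries in which Anxa7 deviated most.

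**Figure D5:**
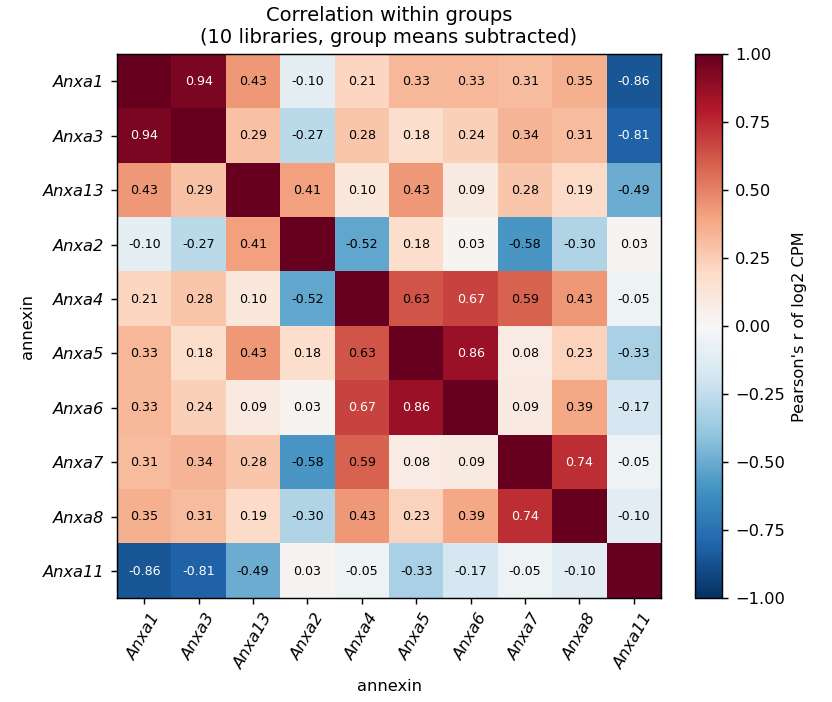
Pearson's r of log2 CPM between pairs of annexins (both axes) over 10 libraries after subtracting the mean of each group; red is positive and blue negative. Anxa1 and Anxa3 reach 0.94, Anxa5 and Anxa6 reach 0.86, and Anxa11 is at -0.86 with Anxa1 and at -0.81 with Anxa3.

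Among 13299 genes (mean log2 CPM of 1 or more), the pattern over 10 libraries was most like that of Anxa8 for Mab21l3 (r = 0.98), Esr1 (0.97), Eya2 (0.97), Gpr110 (0.96), Kif5c (0.96) and Loxl4 (0.96). These values contain the difference between the groups. Mab21l3 was at 5.05, 7.96, 4.14, 3.30 and 2.87 CPM in KMS and at 15.7, 16.2, 21.9, 17.0 and 48.7 CPM in KM. As for Anxa8, KM replicate 5 was the highest and KMS replicate 5 the lowest library. Esr1, the gene of estrogen receptor alpha, was at 3.37, 5.77, 2.66, 4.18 and 4.49 CPM in KMS and at 23.6, 28.4, 32.4, 14.7 and 48.0 CPM in KM, with KM replicate 5 the highest. After subtracting group means the 6 most alike were Fgd3 (r = 0.92), Sgsm1 (0.90), Fam167a (0.90), Mab21l3 (0.89), Fam83h (0.89) and Rrm2 (0.89), a subunit of the enzyme that makes deoxyribonucleotides. Mab21l3 was the only gene on both lists. For all 6 genes of the second list KM replicate 5 was the highest KM library, as for Anxa8. Both lists hold the highest r among 13299 genes over 10 libraries. A highest value picked among so many genes overstates the likeness, and none was tested against chance.

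The remaining annexins in the table were Anxa9 and Anxa10. Anxa9, whose core lacks the usual calcium-binding sites, was at 1.96, 4.85, 1.48, 2.47 and 4.98 CPM in KMS and at 9.16, 14.1, 3.97, 4.61 and 7.33 CPM in KM. The groups overlapped at KM replicates 3 and 4, and the log2 fold change of -1.31 did not pass the test (edgeR's quasi-likelihood test, adjusted p = 0.193; unadjusted p = 0.0162). Anxa10, an annexin of the stomach lining, had counts of 0, 8, 0, 0 and 1 in KMS and 3, 6, 1, 0 and 14 in KM and was not tested. RefSeq places Anxa9 in overlap with Cers2, which also has counts, so reads at that overlap cannot be assigned with certainty.

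Of 10 partners and receptors of annexins, all tested, 4 had higher and 6 lower values in KMS and 0 passed the thresholds, with a median log2 fold change of -0.42. At an unadjusted p under 0.05 there were 1 higher, Pdcd6, and 1 lower, Pla2g4a (edgeR's quasi-likelihood test), against 10.8% higher and 8.62% lower among all tested genes. DESeq2 placed 1, Pdcd6, past the thresholds, as it did 5.24% of its genes. Pdcd6, the partner of Anxa7 and Anxa11, was at 117, 133, 80.5, 98.2 and 116 CPM in KMS and at 73.7, 79.3, 80.4, 58.5 and 55.0 CPM in KM. The groups did not overlap, though KMS replicate 3 and KM replicate 3 were nearly level, and the log2 fold change of 0.65 did not pass the test (edgeR's quasi-likelihood test, adjusted p = 0.166). Anxa7 and Pdcd6 had r = 0.80 over 10 libraries, and 0.38 after subtracting group means. Pla2g4a, the cytosolic phospholipase whose substrate annexins can cover, was at 13.9, 18.1, 21.2, 14.5 and 6.79 CPM in KMS and at 27.3, 29.3, 14.3, 31.6 and 34.4 CPM in KM. KM replicate 3 was the only KM library within the KMS range, and the log2 fold change was -0.88 (edgeR's quasi-likelihood test, adjusted p = 0.200).

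Of the S100 proteins, S100a11, a partner of Anxa1, averaged 152 ± 124 CPM in KMS and 117 ± 24.2 CPM in KM, and S100a6, a partner of Anxa11, averaged 65.1 ± 41.4 CPM in KMS and 81.4 ± 33.0 CPM in KM (SD, n = 5 mice each). S100a11 reached 355 CPM in KMS replicate 5, the library that was also highest for Anxa2 and S100a10, and its log2 fold change was 0.37 with that library and -0.21 without it. S100a4 averaged 8.96 ± 4.31 CPM in KMS and 13.4 ± 7.19 CPM in KM. Ahnak, a giant scaffold protein bound by Anxa2 and S100a10, averaged 131 ± 28.3 CPM in KMS and 189 ± 67.1 CPM in KM, and Sri, the sorcin that binds Anxa7, averaged 147 ± 40.0 CPM in KMS and 115 ± 22.5 CPM in KM. The receptors of Anxa1 were low. Fpr1 was at 0.0468 to 1.0 CPM in KMS and 0.178 to 3.09 CPM in KM, and Fpr2 at 0.0623 to 2.36 CPM in KMS and 0.414 to 5.85 CPM in KM, with overlapping groups for both.

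Among 17 other proteins of calcium-dependent membrane binding and repair, 16 were tested, 3 with higher and 13 with lower values in KMS, with a median log2 fold change of -0.31. None passed the thresholds in edgeR's quasi-likelihood test, DESeq2, limma-voom or the likelihood ratio test. At an unadjusted p under 0.05, 3 were lower in KMS, Myof, Cpne7 and Cpne8, as were 8.62% of all tested genes (edgeR's quasi-likelihood test). Myof, a ferlin of membrane fusion and repair, averaged 54.1 ± 34.1 CPM in KMS and 105 ± 33.1 CPM in KM (SD, n = 5 mice each). Chmp4b, a subunit of the ESCRT-III complex that seals membranes, averaged 188 ± 62.7 CPM in KMS and 128 ± 24.9 CPM in KM, with a log2 fold change of 0.55. Pdcd6ip, the ALIX protein that Pdcd6 recruits, averaged 164 ± 36.9 CPM in KMS and 194 ± 17.9 CPM in KM, with a log2 fold change of -0.25. Both were the members of highest mean level in this list, and neither passed the test.

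Around Anxa8 on chromosome 14, the 8 other tested genes between 33923587 and 34404287 overlapped between the groups and none passed the thresholds. The nearest on either side were Gdf10, from 33923587 to 33936514, with a log2 fold change of -1.05 (standard error 0.68), and the pseudogene Rpl23a-ps3, from 34170641 to 34171173, with 1.40 (standard error 1.09). Anxa8 was the only tested gene of this stretch whose KMS libraries all lay below its KM libraries. Such a separation was seen for 2.94% of all tested genes, and Anxa8 was chosen for its difference, so nothing is read from it.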

How the data were processed

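Polyadenylated RNA of 5 KMS and 5 KM mice was sequenced as 150-base read pairs from directional libraries. The methods state that the authors used HISAT2 2.2.1 for alignment of filtered reads to the NCBI build GRCm38, and HTSeq for counting per gene. For HTSeq, version and strandedness are not given in the sources. The deposited values are whole-number counts per gene and library, neither normalized nor pooled. The authors also deposited log2 fold changes, p-values and FDR values of their own comparison, which were not used. All 10 count columns were mapped to a library by their names and 0 were left unmapped. Genotype in the labels defined the groups, and all libraries were treated as separate mice. KM replicates 1 and 2 resembled each other most (chi-square per degree of freedom 5.46, against 44.7 or more for any other pair of a group).

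Counts were tested in R 4.3.3 with edgeR 4.0.16 (TMM factors, filterByExpr with the groups, quasi-likelihood test without covariates, Benjamini-Hochberg adjustment over 15728 genes), with thresholds of an FDR under 0.05 and a change of more than 1.5-fold in either direction. Standard errors are the log2 fold change over the square root of the F statistic. CPM used TMM factors, and log2 CPM a prior count of 3. The code was tested on simulated data. The alternatives were RLE and upper-quartile factors, library totals alone, DESeq2 1.42.0, limma 3.58.1 with voom, edgeR's likelihood ratio test, no filter, at least 10 counts in every library of a group, the FDR alone, a block by replicate number, RUVg with 1 factor, Y-linked level as a covariate, thinning to the smallest total, and each library left out in turn. RUVSeq is named in the methods without a variant, so it entered only as an alternative. Per-length levels used GENCODE vM21 exon unions. Near-identical copies were searched with BLAST+ 2.17.0 (at least 90% identity over 300 bases). Positions and promoter windows are those of RefSeq for GRCm38.p6.

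The members and the gene lists were chosen with earlier results of these data known. Named genes are all members, the other annexins, and the partners and receptors. Also named are the 6 genes most like Anxa8 over libraries and after subtracting group means. From further lists up to 3 genes past the thresholds, or else the 2 of highest mean level, were to be named. This was done for membrane repair, stratified epithelium, urothelium, dividing cells, injured tubules and fibroblasts. No gene was named from the other lists. Those other marker lists are given by the sums of their levels or by counts of higher and lower genes. Other genes, such as Perp, Krt6a, Krt20, Myof, further uroplakins, further injured tubule genes and the neighbours of Anxa8, were named after their values had been seen.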

Additional observations from a re-analysis of the deposited data

Results flagged for a closer look

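Single libraries far from the rest of their group were found for 3 annexins, among 40 groups of 5 libraries checked over 20 genes. Chance gives about 1 in 20 groups. Anxa2 in KMS replicate 5 was at 165.8 CPM, with the next KMS library at 16.6 CPM, a gap of 0.915 of the range of the group. Anxa4 in KMS replicate 2 was at 212 CPM, with the next KMS library at 127 CPM, a gap of 0.756 of the range. Anxa11 in KM replicate 3 was at 90.05 CPM, with the next KM library at 45.1 CPM, a gap of 0.860 of the range.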

How the results depend on the processing

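The number of genes past the thresholds was 16, and it was 25 with upper-quartile factors, 128 with library totals alone (8 higher and 120 lower in KMS, against 4 and 12), 1072 with DESeq2, 33 with limma-voom, 602 with the likelihood ratio test and 569 with RUVg, and 9 to 42 when single libraries were left out. Library totals and upper-quartile factors moved the median log2 fold change of all genes to -0.24 and -0.09, against 0.06 with TMM. The number of annexins past the thresholds was 1, and it was 0 with the Y-linked covariate and 0 after thinning, and 0 to 1 when single libraries were left out. The cause was not tested. Same-numbered libraries had correlations of -0.34, 0.14, -0.28, 0.12 and -0.44 over genes, which cannot tell whether the replicate numbers pair the mice. With the replicate block 2 genes and 0 annexins were past the thresholds.

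Anxa1, Anxa4, Anxa5, Anxa7, Anxa8 and Anxa11 kept their direction in all 22 settings, though Anxa7 was at 0.25 with upper-quartile factors and 0.11 with library totals, against 0.40. The log2 fold change of Anxa2 was -0.74 with limma-voom, -0.74 with RUVg and -0.77 with the replicate block, and without single libraries it ranged from -1.20 (KMS replicate 5) to 1.08. That of Anxa3 was -0.027 with upper-quartile factors, -0.099 with library totals and -0.033 with the Y-linked covariate, and without single libraries it ranged from -0.093 to 0.38, negative without KM replicate 3 and without KMS replicate 2. Anxa13 was at 0.073 with the Y-linked covariate, and Anxa6 ranged from -0.33 to 0.067 without single libraries, positive without KMS replicate 1 and without KMS replicate 4. In the order of mean levels over all libraries, 6 to 10 of the 10 annexins kept their place when single libraries were left out, 6 of them without KM replicate 3 and 6 without KMS replicate 5. With the longest transcript as the length of each gene, a choice added after the data were seen, 5 of the 10 kept their place. Depth limits Anxa8 in KMS, where it rests on 3 to 17 counts per library.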
